A study of Mus musculus with 12 samples.

Results

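Guanylate binding proteins (GBPs) are large GTPases of cell-autonomous immunity. Their genes are switched on by interferons, and the proteins assemble on pathogen vacuoles and bacterial surfaces, where they help to break these compartments open and to start inflammasome responses. Interferon-γ acts on them through GAS elements and through newly made IRF1, and type I interferons act through a complex with STAT2 and IRF9, which binds interferon-stimulated response elements (ISREs). The members described here are the 7 genes Gbp2, Gbp3, Gbp4, Gbp5, Gbp6, Gbp7 and Gbp9, chosen by name out of the 55401 genes of the expression table.

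The RNA came from bone marrow mesenchymal stem cells (MSCs) of C57BL/6 mice, a commercial cell stock, in 4 groups of 3 poly(A) libraries. MSCs were left untreated, received TGF-β1 at 5 ng/mL, which drives MSCs toward myofibroblasts, or received the same dose of TGF-β1 together with the culture supernatant of monocytic (M) or granulocytic (G) myeloid-derived suppressor cells (MDSCs). The MDSCs were bone marrow cells induced with cytokines and sorted as CD11b+Ly6G-Ly6Chigh (M-MDSCs) or CD11b+Ly6G+Ly6Clow (G-MDSCs). The study asked how these supernatants alter the response of MSCs to TGF-β1. There was no group with supernatant but without TGF-β1, and none with TGF-β1 and fresh MDSC medium. What the MDSCs released and the medium they were kept in therefore cannot be told apart here. The labels do not say whether the libraries of a group came from separate cultures, so p-values measure only the spread between these libraries.

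Each library held between 73977669 and 84565450 counts assigned to genes. Levels are given as FPKM, read fragments normalised by the authors for exon length and sequencing depth, and as raw counts where the level was low. For the MSC label, 8 surface markers were looked up. All had counts in every group, which alone does not establish the label. Eng stayed between 0.683 and 0.891 FPKM by group mean, and Nt5e had 0.407 FPKM in untreated MSCs. Their summed level lay between 500.0 and 598.0 FPKM, with Itgb1 at 254 to 385 FPKM by group mean, while single markers moved: of the 7 tested, 4 were higher and 3 lower with TGF-β1 and passed, against 16.1% higher and 17.9% lower of the 12016 genes tested, with Ly6a (Sca-1) at 245 FPKM in untreated MSCs, 16.2 with TGF-β1, 92.5 with M-MDSC and 66.9 with G-MDSC supernatant. Pdgfra fell from 14.0 to 4.95 FPKM and Thy1 from 4.49 to 2.16 FPKM with TGF-β1. The 12016 genes that reached 1 FPKM in 3 or more of the 12 libraries were tested with the quasi-likelihood F test of edgeR. Among the markers, Eng did not reach this level. Nt5e, called higher with TGF-β1, reached it only in libraries given TGF-β1. Of the 7 GBP genes, Gbp2, Gbp3 and Gbp9 reached this level in 9 libraries, Gbp7 reached it only in the 6 libraries with supernatant, and Gbp4, Gbp5 and Gbp6 never reached it. Since Gbp7 met the filter only through the groups in which it was high, its values and those of Gbp4, Gbp5 and Gbp6 come from the same fit without the filter, over 28622 genes, and counts over all members are taken from that fit. A gene passed when its p-value, adjusted over all genes tested, was under 0.05.

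The members form 2 gene clusters (GRCm38). On chromosome 3, plus strand, lie Gbp5 (ENSMUSG00000105504, 142493978 to 142522344), Gbp7 (ENSMUSG00000040253, 142530342 to 142550149), Gbp3 (ENSMUSG00000028268, 142560026 to 142573209) and Gbp2 (ENSMUSG00000028270, 142620602 to 142638008). On chromosome 5, minus strand, lie Gbp9 (ENSMUSG00000029298, 105077630 to 105110277), Gbp4 (ENSMUSG00000079363, 105115767 to 105139586) and Gbp6 (ENSMUSG00000104713, 105270702 to 105293696). Gbp2b (ENSMUSG00000040264), which lies between Gbp3 and Gbp2, and Gbp10 (ENSMUSG00000105096), which lies between Gbp4 and Gbp6, are family genes outside the 7 and are described beside them.

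RefSeq promoter windows (GRCm38.p6, 250 bases before to 50 bases after the start) were held for 4 of the 7 members, Gbp2, Gbp3, Gbp5 and Gbp7, and for Gbp2b. They are shown because all 7 members changed with TGF-β1 and with M-MDSC supernatant, and because interferon acts on these genes through short promoter elements. Capitals mark the letters that match the ISRE core, GAAA followed by 2 bases of any kind and again GAAA, which was searched on both strands and in each case lay on the strand opposite to the gene. Each stretch is printed on the strand of the gene, with its position on the chromosome.
Gbp5, chr3:142496724-142496823: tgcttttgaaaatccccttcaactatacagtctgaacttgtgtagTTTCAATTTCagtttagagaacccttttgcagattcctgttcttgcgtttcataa
Gbp7, chr3:142530238-142530335: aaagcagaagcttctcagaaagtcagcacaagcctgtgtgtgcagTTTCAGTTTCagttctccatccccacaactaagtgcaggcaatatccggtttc
Gbp3, chr3:142559954-142560043: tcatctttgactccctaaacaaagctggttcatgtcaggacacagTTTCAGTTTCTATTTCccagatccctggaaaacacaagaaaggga
Gbp2b, chr3:142594665-142594764: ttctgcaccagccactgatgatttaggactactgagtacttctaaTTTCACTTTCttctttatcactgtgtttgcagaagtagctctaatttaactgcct
Gbp2, chr3:142620559-142620658: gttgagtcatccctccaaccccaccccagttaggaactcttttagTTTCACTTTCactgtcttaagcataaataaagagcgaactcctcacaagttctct

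The match began 59 bases before the start in Gbp2, 45 bases before it in Gbp3, 53 in Gbp7, 137 in Gbp2b and 165 in Gbp5. Distances are counted from the RefSeq start, and for Gbp5 the whole printed stretch lies inside the gene span given above. In these matches Gbp3 and Gbp7 shared the same 10 letters, as did Gbp2 and Gbp2b. In Gbp3 a further match overlapped it, beginning 39 bases before the start, and both are in capitals. A second annotated start of Gbp3 had a window with no match, so that 5 of the 6 windows of GBP genes held the ISRE letters, against 3.44% of the 32851 windows of all genes. The GAS letters TTCNNNGAA, which read alike on both strands, were present in the windows of Gbp5 and Gbp7, 2 of the 6, against 8.3% of all windows. A match describes letters in the window and is no evidence of binding, and no match says only that these letters are absent from it.

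TGF-β1 lowered the whole set. All 7 members were lower with TGF-β1 than in untreated MSCs and passed, against 7.8% of all genes in the fit without filter that passed as lower, and for all 7 the 3 TGF-β1 libraries lay below the 3 untreated libraries, which was the case for 17.7% of all genes. The median log2 fold change of the 7 members was -2.89, against 0.0 over all genes in that fit. The looser rule of the study (p-value under 0.05 before adjustment and a change of more than 2-fold) also called all 7, against 4.34% of all genes called as lower.

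Gbp2, whose prenylated protein coats parasite vacuoles and bacteria, had 3.33, 3.66 and 3.89 FPKM in the untreated libraries and 0.948, 0.775 and 0.75 FPKM with TGF-β1. It fell 4.21-fold (log2 fold change -2.07, SE 0.12, adjusted p = 3.58e-07). Gbp3 had 2.88, 3.18 and 3.84 FPKM in untreated MSCs and 0.695, 0.517 and 0.645 FPKM with TGF-β1. It fell 5.11-fold (log2 fold change -2.35, SE 0.12, adjusted p = 1.54e-07). In untreated MSCs these were the most abundant members per kilobase, at 3.62 ± 0.281 and 3.3 ± 0.492 FPKM (mean ± SD, n = 3), and their untreated ranges overlapped.

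Gbp9 had 1.52, 1.18 and 1.38 FPKM in untreated MSCs and 0.187, 0.154 and 0.21 FPKM with TGF-β1, a 7.1-fold decrease (log2 fold change -2.83, SE 0.14, adjusted p = 9.09e-08). Gbp7, whose protein acts in the defence of macrophages against intracellular microbes, had 0.786, 0.66 and 0.673 FPKM in untreated MSCs and 0.094, 0.102 and 0.0719 FPKM with TGF-β1. It fell 7.43-fold (log2 fold change -2.89, SE 0.19, adjusted p = 7.74e-07). Per kilobase, Gbp9 and Gbp7 ranked below Gbp2 and Gbp3 in untreated MSCs, and their ranges in that group did not overlap with each other.

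The remaining members were scarce in every group. Gbp6 had 142, 217 and 170 counts in untreated MSCs and 12, 0 and 3 counts with TGF-β1. Gbp5, which promotes the NLRP3 inflammasome in macrophages, had 85, 122 and 127 counts in untreated MSCs and 8, 0 and 0 counts with TGF-β1. Gbp4 had 61, 43 and 33 counts in untreated MSCs and no count in the 3 TGF-β1 libraries. Taking 3 counts per library as the limit that a count of 0 allows, Gbp4 was at least 15.5-fold lower with TGF-β1. Low counts piled up at multiples of 4, and with a limit of 12 counts per library this bound fell to 3.87-fold. The fitted log2 fold changes of Gbp5 and Gbp6 were -5.26 (SE 0.87, adjusted p = 0.00125) and -5.05 (SE 0.86, adjusted p = 0.00166). All 8 counts of Gbp5 and 12 of the 15 counts of Gbp6 with TGF-β1 came from replicate 1, and without that library the fitted values were -9.74 and -6.70, so the size of these decreases is poorly set. With limma on log2(FPKM + 1), Gbp6 did not pass (adjusted p = 0.0701). Limits and intervals cover counting error or the spread of these libraries only.

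**Figure D1:**
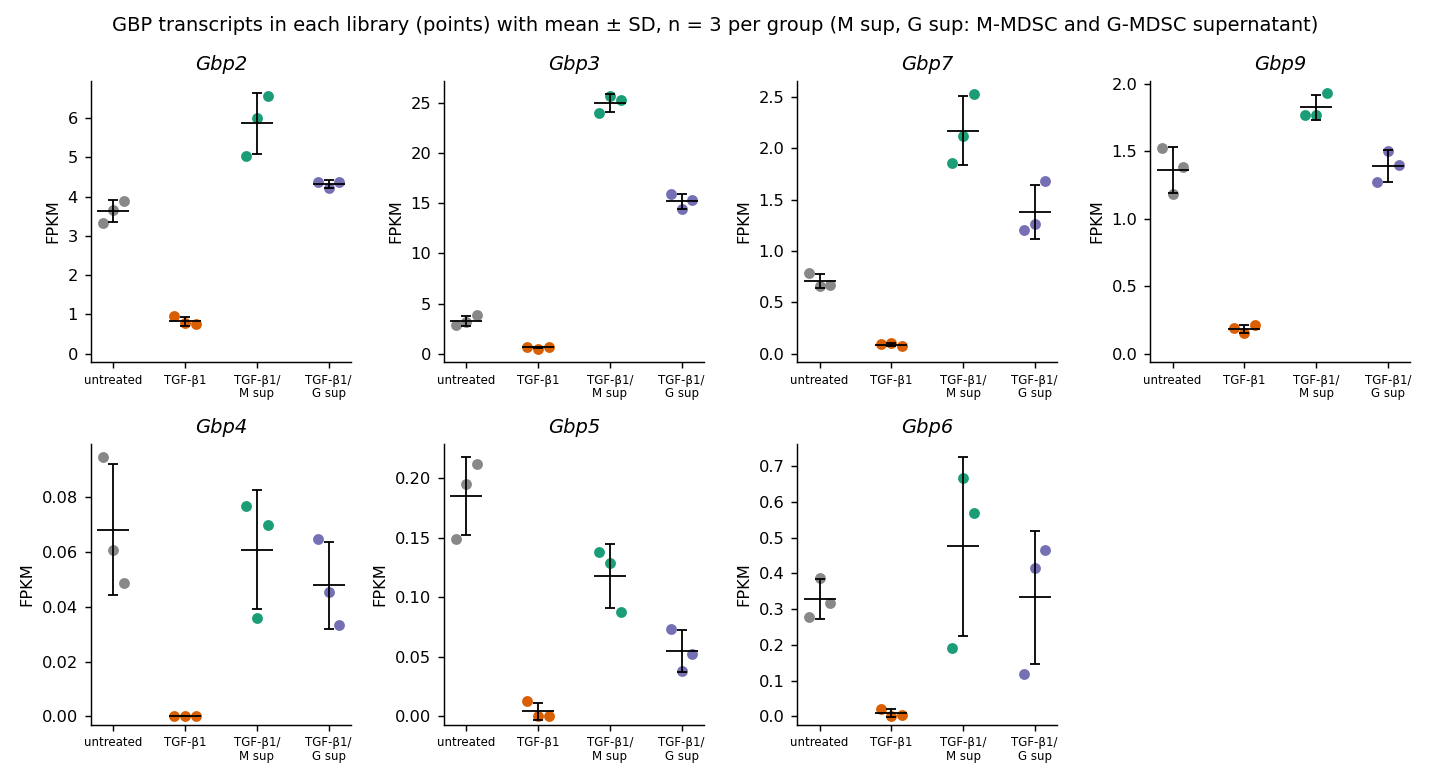
FPKM (y axis, own scale per panel) of the 7 GBP genes in untreated MSCs and in MSCs given TGF-β1 alone or with the supernatant of M-MDSCs (M sup) or G-MDSCs (G sup). Points are libraries and bars are mean ± SD (n = 3). In every panel the 3 TGF-β1 libraries lie lowest, Gbp3 reaches 25.0 FPKM with M-MDSC supernatant, and the group means of Gbp4 and Gbp5 with supernatant lie below the untreated mean.

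M-MDSC supernatant raised all 7 members above their level with TGF-β1 alone. All 7 passed, against 1.56% of all genes that passed as higher, and the libraries did not overlap for any of the 7, against 8.73% of all genes. The median log2 fold change of the members was 4.69, or 4.56 with Gbp4 at its lower bound, against 0.0 over all genes in that fit. The comparison uses the same TGF-β1 libraries as the one above, in which the members were low.

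Gbp3 showed the highest level and, among the members that reached 1 FPKM, the strongest rise. It had 24, 25.7 and 25.3 FPKM with M-MDSC supernatant, 39.6-fold above TGF-β1 alone (log2 fold change 5.31, SE 0.14, adjusted p = 2.08e-09). Gbp7 had 1.86, 2.12 and 2.53 FPKM, a 23.6-fold increase (log2 fold change 4.56, SE 0.2, adjusted p = 6.86e-08). Gbp9 had 1.77, 1.77 and 1.93 FPKM and was 9.73-fold higher (log2 fold change 3.28, SE 0.14, adjusted p = 8.12e-08). Gbp2 had 5.03, 6.01 and 6.56 FPKM and was 6.99-fold higher (log2 fold change 2.81, SE 0.13, adjusted p = 1.12e-07).

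Among the scarce members, Gbp6 had 95, 328 and 295 counts with M-MDSC supernatant (log2 fold change 5.63, SE 0.87, adjusted p = 0.00513), with replicate 1 well below the others. Gbp5 had 78, 73 and 51 counts (log2 fold change 4.69, SE 0.86, adjusted p = 0.0149). Gbp4 had 48, 23 and 46 counts and was at least 13.9-fold higher than with TGF-β1 alone, or 3.47-fold with the limit of 12 counts. Gbp5 and Gbp6 did not pass when the fit held only the groups compared (adjusted p = 0.196 and 0.0743), and Gbp4 and Gbp6 did not pass with limma on log2(FPKM + 1) (adjusted p = 0.075 and 0.0884). Without TGF-β1 replicate 1, which held most of the counts of Gbp5 and Gbp6 in that group, the fitted log2 fold changes of Gbp5 and Gbp6 were 9.17 and 7.28.

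G-MDSC supernatant was compared with the same TGF-β1 libraries. Of the 7 members, 6 passed as higher, against 1.84% of all genes, and the libraries did not overlap for any of the 7, against 9.82% of all genes. The median log2 fold change was 3.90, or 3.59 with Gbp4 at its lower bound, against 0.0 over all genes.

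Gbp3 had 15.9, 14.4 and 15.3 FPKM with G-MDSC supernatant, 24.1-fold above TGF-β1 alone (log2 fold change 4.59, SE 0.13, adjusted p = 6.84e-09). Gbp7 had 1.2, 1.26 and 1.68 FPKM and was 14.9-fold higher (log2 fold change 3.90, SE 0.19, adjusted p = 2.96e-07). Gbp9 had 1.27, 1.5 and 1.4 FPKM and was 7.4-fold higher (log2 fold change 2.89, SE 0.14, adjusted p = 2.78e-07). Gbp2 was held within a narrow range of 4.38, 4.21 and 4.36 FPKM and was 5.13-fold higher (log2 fold change 2.36, SE 0.12, adjusted p = 5.29e-07).

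Gbp6 had 68, 218 and 251 counts with G-MDSC supernatant (log2 fold change 5.11, SE 0.86, adjusted p = 0.00792), again with the lowest value in replicate 1. Gbp4 had 46, 30 and 23 counts and was at least 10.9-fold higher, or 2.72-fold with the limit of 12 counts. Gbp5 was the member that did not pass, with 47, 24 and 32 counts (log2 fold change 3.59, SE 0.85, adjusted p = 0.0539). Its 3 libraries nevertheless lay above those with TGF-β1 alone, and it passed without TGF-β1 replicate 1 (log2 fold change 8.07, adjusted p = 0.000695), with DESeq2 (adjusted p = 8.66e-06) and with counts divided by 4 (adjusted p = 0.0147). Gbp4 and Gbp6 did not pass with limma on log2(FPKM + 1) (adjusted p = 0.135 and 0.194). Gbp6 also did not pass when the fit held only the groups compared (adjusted p = 0.0614), and without TGF-β1 replicate 1 its fitted value was 6.76.

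**Figure D2:**
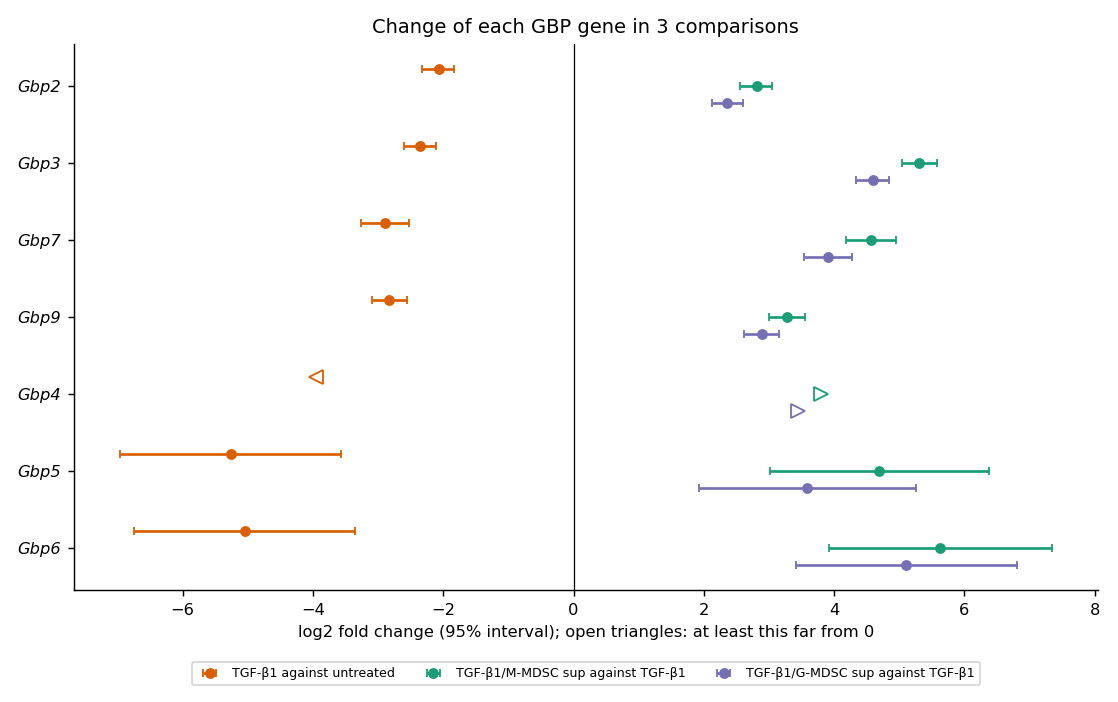
Log2 fold change (x axis) of each GBP gene for TGF-β1 against untreated MSCs and for each supernatant against TGF-β1 alone, with 95% intervals from the edgeR fit. Open triangles give the lower bound of the change of Gbp4, which had no count with TGF-β1. TGF-β1 values lie left of 0 and supernatant values right of 0 for every gene, and Gbp3 reaches 5.31 with M-MDSC supernatant.

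Set against untreated MSCs, the supernatants did not restore the members evenly. Counts of Gbp3 scaled to library size (CPM) stood at 18.8% of the untreated mean with TGF-β1 alone, at 756% in the TGF-β1/M-MDSC supernatant group and at 460% with TGF-β1/G-MDSC supernatant. Gbp7 went from 12.8% to 307% and 195%, and Gbp2 from 22.8% to 162% and 119%. Gbp9 went from 13.5% to 134% and 102%. At the other end, Gbp5 reached only 64.7% and 30.3% of the untreated mean, and Gbp4 reached 89.7% and 70.2%.

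With M-MDSC supernatant, 4 of the 7 members passed as higher than in untreated MSCs, against 7.85% of all genes. Gbp3 was 7.75-fold higher (log2 fold change 2.95, SE 0.12, adjusted p = 2.48e-08), Gbp7 3.18-fold (1.67, SE 0.17, adjusted p = 2.96e-05), Gbp2 1.66-fold (0.73, SE 0.12, adjusted p = 0.000587) and Gbp9 1.37-fold (0.45, SE 0.13, adjusted p = 0.0174). The call of Gbp9 was lost without untreated replicate 2 (adjusted p = 0.0622) or without M-MDSC supernatant replicate 3 (adjusted p = 0.0586). In the fit without filter (adjusted p = 0.0289) it was also lost without untreated replicate 3 (0.0747) and M-MDSC supernatant replicates 1 (0.059) and 2 (0.0613). Gbp4 (log2 fold change -0.10, 95% interval -0.98 to 0.78), Gbp5 (-0.57, -1.87 to 0.72) and Gbp6 (0.58, -0.70 to 1.86) did not pass. The 3 libraries of Gbp5 with M-MDSC supernatant lay below all untreated ones, and it passed as lower with limma on log2(FPKM + 1) (adjusted p = 0.0388).

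With G-MDSC supernatant, 2 of the 7 members passed as higher than in untreated MSCs, against 7.92% of all genes. These were Gbp3, 4.71-fold higher (log2 fold change 2.24, SE 0.12, adjusted p = 1.87e-07), and Gbp7, 2.01-fold higher (1.01, SE 0.17, adjusted p = 0.00129). Gbp2 did not pass (0.29, 95% interval 0.06 to 0.51, adjusted p = 0.0838), although its 3 libraries lay above the untreated ones, and it passed when the fit held only the groups compared (adjusted p = 0.0483). Gbp9 differed by 0.06 (95% interval -0.19 to 0.31), Gbp6 by 0.07 (-1.22 to 1.35) and Gbp4 by -0.46 (-1.34 to 0.42), and their libraries overlapped with the untreated ones. Gbp5 remained below all untreated libraries (-1.67, 95% interval -3.01 to -0.34, adjusted p = 0.145), and it passed as lower with DESeq2 (adjusted p = 0.00324), with limma on log2(FPKM + 1) (adjusted p = 0.000794), with counts divided by 4 (adjusted p = 0.0123) and when the fit held only the groups compared (adjusted p = 0.0136).

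**Figure D3:**
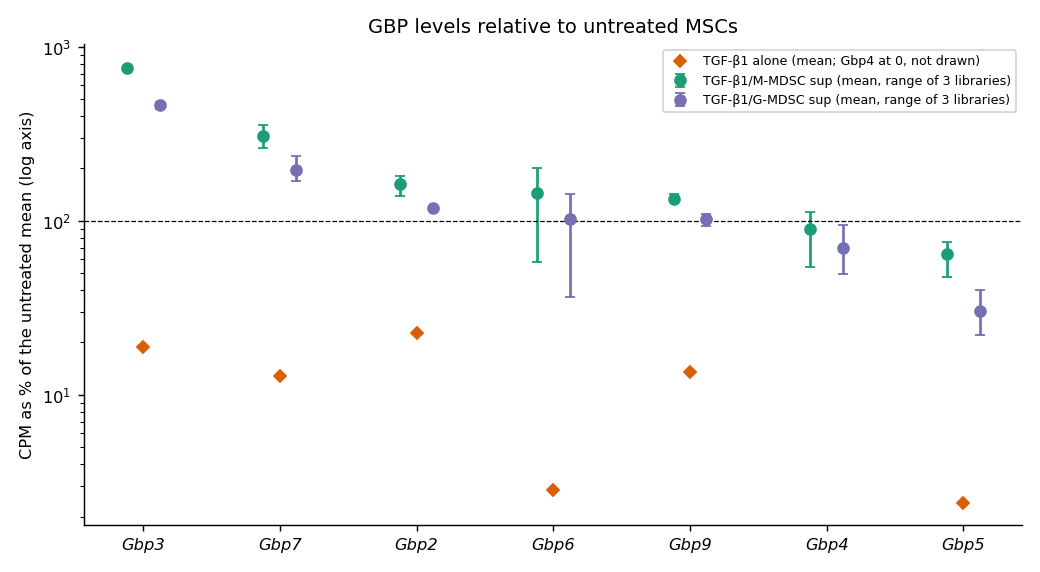
CPM of each GBP gene as a percentage of the untreated mean (log axis), with the mean and the range of 3 libraries for each supernatant and the mean for TGF-β1 alone; Gbp4, at 0 with TGF-β1, has no diamond. The dashed line marks 100%, and the supernatant means run from 756% for Gbp3 down to 30.3% for Gbp5.

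The 2 supernatants were also compared directly. Every member had its higher mean with the supernatant of M-MDSCs, and the libraries did not overlap for Gbp2, Gbp3, Gbp5, Gbp7 and Gbp9, 5 of the 7, which was so in this direction for 3.92% of all genes. None of the members passed in the edgeR fit of all 4 groups on the counts as deposited, with or without the filter of 1 FPKM in 3 libraries, against 0.0419% of all genes in the fit without filter and 0.125% in the filtered fit in either direction. Gbp3 was nearest, 1.65-fold higher with M-MDSC supernatant (log2 difference 0.72, 95% interval 0.50 to 0.94, adjusted p = 0.0509). The differences were 0.66 for Gbp7 (0.34 to 0.98, adjusted p = 0.52), 0.45 for Gbp2 (0.22 to 0.67, adjusted p = 0.328) and 0.39 for Gbp9 (0.15 to 0.64, adjusted p = 0.544). In the fit without filter, 4 of the 7 (Gbp2, Gbp3, Gbp7 and Gbp9) had an unadjusted p-value under 0.05, against 4.33% of all genes. Gbp3 passed with counts divided by 4 (adjusted p = 0.0247 with the filter and 0.0134 without), with a filter of 1 FPKM in 6 libraries (adjusted p = 0.0465), when the edgeR fit held only the groups compared (adjusted p = 0.00815), with limma on log2(FPKM + 1) (adjusted p = 0.00647) and with DESeq2 (adjusted p = 1.19e-07). DESeq2 also called Gbp7 (adjusted p = 0.0331) and, with the filter alone, Gbp2 (adjusted p = 0.049).

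The order of the groups was thus M-MDSC supernatant, G-MDSC supernatant, untreated and TGF-β1 by mean FPKM for Gbp2, Gbp3, Gbp6, Gbp7 and Gbp9. For Gbp6 and Gbp9 the means of the G-MDSC supernatant and untreated groups were close, at 0.333 ± 0.187 and 0.328 ± 0.0559 FPKM for Gbp6 and at 1.39 ± 0.115 and 1.36 ± 0.172 FPKM for Gbp9. For Gbp4 and Gbp5 the untreated group was highest, followed by M-MDSC supernatant, G-MDSC supernatant and TGF-β1. For Gbp4 only the step to TGF-β1 exceeded the spread, since the ranges of the other groups, from 0.0332 to 0.0946 FPKM, overlapped.

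Ratios between members were also compared. The ratio of Gbp3 to Gbp2, taken within each library from FPKM, was 0.866, 0.87 and 0.989 in untreated MSCs and 0.733, 0.667 and 0.86 with TGF-β1. It was 4.77, 4.28 and 3.86 with M-MDSC supernatant and 3.63, 3.44 and 3.51 with G-MDSC supernatant, so that the 4 groups did not overlap. On the log2 scale the ratio was higher by 2.52 with M-MDSC and by 2.23 with G-MDSC supernatant than with TGF-β1 alone (exact permutation test, two-sided, p = 0.1 for each, the smallest that 3 against 3 libraries allow, 0.141 after adjustment over 24 such comparisons). The ratio of Gbp7 to Gbp2 was higher by 1.77 and 1.55 in the same comparisons, and the ratio of Gbp9 to Gbp2 by 0.49 and 0.53, with the same p-values. For Gbp2b to Gbp2 the differences were 0.31 and 0.18 (exact permutation test, p = 0.2 and 0.8, adjusted p = 0.24 and 0.835). These ratios were chosen after the values had been seen. Across the 12 libraries, log2(FPKM + 1) of Gbp2, Gbp3, Gbp7 and Gbp9 had pairwise Pearson correlations from 0.866 (Gbp3 and Gbp9) to 0.981 (Gbp2 and Gbp9), which mainly restate the 4 group levels. Within a group, TGF-β1 replicate 1, M-MDSC supernatant replicate 3 and G-MDSC supernatant replicate 3 each lay above their group mean for all 4 of these genes, by 0.13, 0.13 and 0.08 on average on the log2 scale, and M-MDSC supernatant replicate 1 lay below for all 4.

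Near-identical neighbours limit how well some members can be told apart. Of all stretches of 100 bases in the annotated transcripts of Gbp6, 64.5% also occurred in another gene, mostly in Gm43302, an annotated gene on the same strand that overlaps both Gbp6 and Gbp10. The share was 73.5% for Gbp10 and 10% for Gbp7, mostly with the pseudogene Gm43802 inside it, and no more than 1.65% for the other members. Gm43302 itself had 149, 187 and 240 counts in untreated MSCs, 17, 0 and 17 with TGF-β1, 508, 499 and 505 with M-MDSC supernatant and 273, 245 and 255 with G-MDSC supernatant.

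Summed over Gbp6, Gbp10 and Gm43302, the locus had 5.02 ± 0.641 CPM in untreated MSCs, 0.203 ± 0.185 with TGF-β1, 10.9 ± 1.7 with M-MDSC and 5.92 ± 1.3 with G-MDSC supernatant (mean ± SD, n = 3). The SD with M-MDSC supernatant was 15.6% of the mean for this sum, against 52.8% for Gbp6 alone, whose low count in replicate 1 was not matched by Gm43302. The log2 fold changes of the sum were -4.56 (TGF-β1 against untreated, adjusted p = 0.000284), 5.73 (M-MDSC supernatant, adjusted p = 0.000397) and 4.84 (G-MDSC supernatant, adjusted p = 0.00126). Gm43802 had 2 to 6 counts in 11 libraries and 169 in G-MDSC supernatant replicate 1. Adding it to Gbp7 changed the log2 fold change with G-MDSC supernatant from 3.90 to 3.92.

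Gbp2b and Gbp10 changed in the same directions as the members. Gbp2b, the mouse counterpart of human GBP1, had 2.44, 2.55 and 2.85 FPKM in untreated MSCs and 0.332, 0.473 and 0.44 FPKM with TGF-β1 (log2 fold change -2.59, SE 0.14, adjusted p = 2.16e-07). It had 3.27, 3.69 and 3.9 FPKM with M-MDSC supernatant (3.09, adjusted p = 1.7e-07) and 2.68, 2.27 and 2.39 FPKM with G-MDSC supernatant (2.52, adjusted p = 1e-06). Gbp10 had 46, 12 and 47 counts in untreated MSCs, none with TGF-β1, 65, 73 and 97 with M-MDSC supernatant and 33, 52 and 42 with G-MDSC supernatant. It was thus at least 11.9-fold lower with TGF-β1, and then at least 27.9-fold and 14.1-fold higher with the supernatants (2.99-fold, 6.97-fold and 3.53-fold with the limit of 12 counts). Gbp11 and the pseudogene Gbp2-ps had no count in any library, and Gbp8 had 4 counts in 1 library.

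The pathway upstream of the GBP genes was described with lists of its parts, ordered from ligand to target. Of 20 interferon genes, none reached the abundance required for testing, their summed level was at most 0.416 FPKM in any library, and Ifng and Ifnb1 had no count in any library. Of 9 receptor and kinase genes, 8 were tested, and none passed with either supernatant against TGF-β1 alone, where 2.83% and 3.1% of the 12016 genes passed as higher. Their median log2 fold changes were 0.00 and 0.06. Ifnar1, a chain of the type I receptor, had 5.8 FPKM on average with TGF-β1, 5.24 with M-MDSC and 5.44 with G-MDSC supernatant. With TGF-β1 against untreated MSCs, 3 of the 8 were lower and passed (Ifngr2, Il10rb and Jak1), against 17.9% of the 12016 genes, with log2 fold changes of -0.49, -0.53 and -0.36.

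Of 10 transcription factors and coactivators, 8 were tested. With TGF-β1, 6 of the 8 were lower and passed, against 17.9% of the 12016 genes. With M-MDSC supernatant 4 rose, and with G-MDSC supernatant 5 rose, against 2.83% and 3.1% of the 12016 genes, with median log2 fold changes of 0.90 and 0.68 against -0.01 over all genes.

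Irf9, the DNA-binding part of the type I complex, had 5.78, 5.14 and 6.11 FPKM in untreated MSCs and 2.44, 2.7 and 2.31 FPKM with TGF-β1. It had 13.5, 15.6 and 15.5 FPKM with M-MDSC and 10.8, 12.1 and 11.5 FPKM with G-MDSC supernatant (log2 fold changes -1.13, 2.56 and 2.17, adjusted p = 2.55e-06, 1.93e-08 and 8.87e-08). Every supernatant library lay above every untreated library, and the libraries with TGF-β1 alone were the lowest. Its partner Stat2 changed by -0.96, 2.39 and 2.03 (adjusted p = 7.41e-06, 2.23e-08 and 1.04e-07). Irf7, which amplifies type I interferon production, changed by -1.80, 4.53 and 3.79 (adjusted p = 5e-06, 2.22e-08 and 1.01e-07). Nlrc5, the coactivator of MHC class I genes, changed by -0.93, 1.21 and 0.99 (adjusted p = 0.00146, 0.00178 and 0.00556).

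Irf1, a classic activator of GBP genes, fell with TGF-β1 and did not pass with either supernatant. It had 5.62, 4.83 and 4.89 FPKM in untreated MSCs and 2.29, 2.01 and 2.1 FPKM with TGF-β1 (log2 fold change -1.20, adjusted p = 0.00134). With M-MDSC supernatant it had 2.26, 3.75 and 3.76 FPKM, a log2 difference of 0.59 from TGF-β1 alone (SE 0.21, adjusted p = 0.186). With G-MDSC supernatant it had 3.24, 2.02 and 3.2 FPKM, a difference of 0.38 (SE 0.21, adjusted p = 0.43). The ranges overlapped with those of TGF-β1 alone, and all supernatant libraries lay below the untreated ones.

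**Figure D4:**
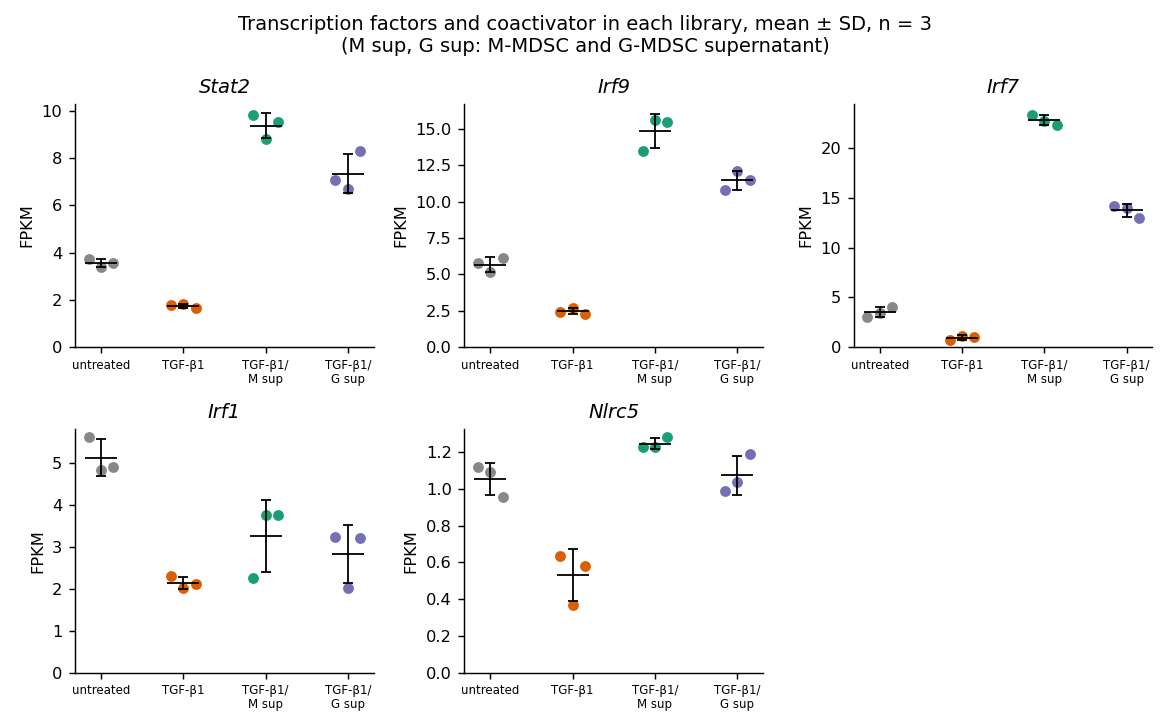
FPKM (y axis from 0, own scale per panel) of 4 transcription factors and the coactivator Nlrc5 in each library, with mean ± SD (n = 3) and the same group labels as for the GBP genes. Stat2, Irf9 and Irf7 lie highest with M-MDSC supernatant, whereas Irf1 is highest in untreated MSCs, between 4.83 and 5.62 FPKM.

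Other interferon targets were counted in the same comparisons. Of 10 immunity-related GTPases, which act on pathogen vacuoles together with GBPs, 8 were tested: 7 were lower with TGF-β1 and passed, 8 rose with M-MDSC and 7 with G-MDSC supernatant, against 17.9%, 2.83% and 3.1% of the 12016 genes (median log2 fold changes -2.38, 4.11 and 3.03). Iigp1 fell from 1.0 FPKM in untreated MSCs to 0.014 FPKM with TGF-β1 and rose to 1.6 FPKM with M-MDSC and 0.702 FPKM with G-MDSC supernatant. Igtp changed by log2 fold changes of -2.32, 4.54 and 3.86. Between the supernatants, 3 of these 8 genes passed as higher with M-MDSC supernatant, Irgm1, Tgtp1 and Tgtp2, with log2 differences of 0.40, 1.28 and 1.38, where 0.125% of all genes passed in either direction. In the fit without filter, which tested 9 of the 10, 7 were lower with TGF-β1 and 7 higher with each supernatant, against 7.8%, 1.56% and 1.84% of all genes.

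Of 10 genes that answer mainly to type I interferon, 8 were tested, and 8 were lower with TGF-β1 and higher with each supernatant, against the same shares of all genes, with medians of -2.46, 4.37 and 3.52. In the fit without filter, which tested all 10, these counts were 9, 10 and 9, against 7.8%, 1.56% and 1.84% of all genes. Usp18, a deubiquitinase-like inhibitor of the type I receptor, changed by -2.35, 6.04 and 5.48, and Ifit1, a sensor of foreign RNA caps, by -2.57, 3.12 and 2.44. Of 10 genes that answer mainly to interferon-γ, only Cd74 and Irf1 met the filter. In the fit without filter, which tested all 10, 2 were lower with TGF-β1 (Irf1 and Cd274) and 4 were higher with each supernatant (Cd74, H2-Aa, H2-Eb1 and Cd274), against the same shares of all genes. Cd74, the invariant chain of MHC class II, had 8, 4 and 14 counts in untreated MSCs and 9, 6 and 2 counts with TGF-β1. It had 203, 141 and 173 counts with M-MDSC and 202, 161 and 172 counts with G-MDSC supernatant. Cd74 met the filter only through the supernatant libraries, and in the fit without filter its log2 fold changes against TGF-β1 alone were 4.99 and 4.92 (adjusted p = 0.000145 and 0.00016). H2-Aa, a chain of MHC class II, had no count in the 6 libraries without supernatant, 46, 22 and 83 counts with M-MDSC and 20, 19 and 36 counts with G-MDSC supernatant. H2-Eb1, another chain, had none without, 41, 8 and 45 with M-MDSC and 39, 15 and 29 with G-MDSC supernatant. Ciita, of the same list, had at most 12 counts in any library, Cxcl9 at most 4 and Ido1 at most 8. Like S100a9, described below among the myeloid markers, H2-Aa and H2-Eb1 had no count without supernatant. Whether their RNA came from the MSCs or was carried over was not tested.

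Of 8 NF-κB and inflammatory targets, 7 were tested. With TGF-β1, 5 were lower and 1 higher and passed, against 17.9% and 16.1% of the 12016 genes, and 2 rose with M-MDSC and 4 with G-MDSC supernatant, against 2.83% and 3.1%. Ccl2, a monocyte chemokine, changed by log2 fold changes of -2.30, 1.1 and 1.44 (adjusted p = 1.99e-09, 1.26e-06 and 1.59e-07).

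Genes that act with or on GBP proteins were counted last. Of 11 autophagy conjugation genes, which help to place GBPs on vacuoles, none passed with either supernatant, with medians of -0.04 and -0.02. None of 5 prenylation enzymes passed, with medians of 0.00 and -0.05. In these comparisons only 2.83% and 3.1% of the 12016 genes passed as higher. With TGF-β1, 4 of the 11 autophagy genes passed, Sqstm1 as higher (0.32) and Atg12, Gabarapl1 and Map1lc3a as lower (-0.32, -0.18 and -0.40), and 1 of the 5 prenylation enzymes, Fnta, was lower (-0.42), against 16.1% of the 12016 genes that passed as higher and 17.9% as lower. Of 8 inflammasome and pyroptosis genes, only Gsdmd, the pore-forming protein of pyroptosis, met the filter, at log2 fold changes of -0.73 with TGF-β1 (adjusted p = 4.8e-06), 0.29 with M-MDSC supernatant (adjusted p = 0.0218) and 0.22 with G-MDSC supernatant (adjusted p = 0.0713). In the fit without filter, which tested all 8, 2 were lower with TGF-β1 and 2 higher with M-MDSC supernatant (Gsdmd and Casp4 in both), and 1, Casp4, was higher with G-MDSC supernatant, against 7.8%, 1.56% and 1.84% of all genes. Casp4, the caspase that senses bacterial lipopolysaccharide in the cytosol, had 0.892, 0.736 and 0.848 FPKM in untreated MSCs, 0.346, 0.284 and 0.311 with TGF-β1, 0.793, 0.86 and 1.05 with M-MDSC and 0.922, 0.939 and 0.877 with G-MDSC supernatant. Its log2 fold changes were -1.33, 1.5 and 1.51 (adjusted p = 6.53e-05, 0.000161 and 0.000151), and its ranges with both supernatants overlapped with the untreated one. Of 6 feedback inhibitors of interferon signaling, 5 were tested, and Socs3 passed with both supernatants (0.31 and 0.42, adjusted p = 0.00497 and 0.000612), 1 of the 5 in each comparison, against 2.83% and 3.1% of the 12016 genes. With TGF-β1, 3 of these 5 were lower and passed, Socs3 (-0.17), Ptpn1 (-0.28) and Ptpn6, a phosphatase of blood cells, against 17.9% of the 12016 genes. Ptpn6 met the filter only through the untreated libraries, and in the fit without filter it was 4.54-fold lower (-2.18, adjusted p = 2.17e-05).

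The genes most like the members over the 12 libraries were found by the Pearson correlation of log2(FPKM + 1) with the mean z-score of the 4 members above the filter, Gbp7 included. They were Ifi202b (r = 0.993), Trim21 (0.993), Dhx58 (0.993), Ifi204 (0.992), Ifit3b (0.992), Nub1 (0.99), Tdrd7 (0.988), Ifi203 (0.987), Tap2 (0.987) and Ifit3 (0.985). Ifi202b, a DNA-binding protein of the HIN200 family, had mean levels of 35.0 FPKM in untreated MSCs, 13.5 with TGF-β1, 59.3 with M-MDSC and 48.8 with G-MDSC supernatant. Nub1 shared the shape at a small amplitude, from 12 ± 0.146 FPKM with TGF-β1 to 16.0 ± 0.401 FPKM with M-MDSC supernatant. The 12 points share 4 treatments, so these correlations describe group levels and carry no p-value.

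RNA of other cells was looked for with marker lists, since a supernatant can carry cells or RNA, and in these bulk libraries fewer cells that express a gene and less RNA per cell cannot be told apart. Of 18 myeloid markers, 9 had no count in untreated MSCs and 9 had none with TGF-β1, against 3 with each supernatant. The summed level lay between 6.25 and 7.34 FPKM in untreated MSCs, 2.39 and 3.33 with TGF-β1, 4.58 and 7.52 with M-MDSC and 6.45 and 9.32 with G-MDSC supernatant. The neutrophil granule genes Mpo and Elane had no count in any library, and Ptprc (CD45) had at most 26 counts. In the fit without filter, 16 of the 18 were tested, and 1 passed as higher with each supernatant, against 1.56% and 1.84% of all genes. Csf1r (0.631 to 1.19 FPKM by group mean) and Cd68 (1.48 to 2.38 FPKM) were present in every group. Camp had 10, 8 and 4 counts in untreated MSCs and 0, 8 and 3 with TGF-β1. It had none with M-MDSC and 8, 0 and 19 with G-MDSC supernatant. Some other markers appeared mainly with supernatant. S100a9 had no count in the 6 libraries without supernatant, 43, 12 and 23 counts with M-MDSC and 0, 0 and 160 with G-MDSC supernatant. Itgam (CD11b) had at most 1 count without supernatant and up to 41 and 42 counts with it, Tyrobp up to 6 without and up to 25 with it, S100a8 up to 4 and 33, and Ngp and Ltf none without and up to 32 and 15 with it. The sort markers Ly6g and Ly6c2 went another way: they had 152 to 161 and 393 to 439 counts in untreated MSCs, were 23.2-fold and 34.4-fold lower with TGF-β1 (adjusted p = 0.0115 and 0.000963) and did not pass with either supernatant against TGF-β1. Lyz2, a lysozyme gene of myeloid cells, rose with both supernatants (log2 fold changes 4.61 and 4.88, adjusted p = 0.0418 and 0.0269). The values of these 3 genes come from the fit without filter, since Ly6g and Ly6c2 met the filter only through the untreated libraries and Lyz2 only through the supernatant libraries. The part of these markers in the GBP values was not tested.

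Of 10 markers of other cell types, 8 were tested in the fit without filter, and 4 passed as higher with each supernatant, Hba-a1, Kap, Umod and Slc34a1, against 1.56% and 1.84% of all genes. Hba-a1, a haemoglobin chain of erythroid cells, had 2, 0 and 11 counts in untreated MSCs and 2, 0 and 0 with TGF-β1. It had 37, 98 and 35 counts with M-MDSC and 40, 31 and 52 counts with G-MDSC supernatant. The kidney transcript Kap had no count in the 6 libraries without supernatant, 773, 537 and 4246 counts with M-MDSC supernatant and 2474, 3185 and 3010 counts with G-MDSC supernatant. Umod and Slc34a1, also of kidney tubules, were likewise present in the 6 supernatant libraries alone. The library with the most Kap, M-MDSC supernatant replicate 3, was also the highest of its group for Gbp2, Gbp7 and Gbp9. By group mean, Kap had 30.5 ± 33.6 FPKM with M-MDSC and 45.2 ± 7.3 FPKM with G-MDSC supernatant, whereas every member had its higher mean with M-MDSC supernatant. Without M-MDSC supernatant replicate 3, the log2 fold changes against TGF-β1 alone were 5.30 for Gbp3, 4.44 for Gbp7, 3.24 for Gbp9 and 2.72 for Gbp2, and all 7 members passed. The libraries left in that group still held 773 and 537 Kap counts, so this removal is no test of carried-over RNA. The part of these transcripts in the GBP values was not tested.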

How the data were processed

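RNA was sequenced from 12 libraries, and the labels gave 3 libraries to each of 4 groups. The authors used fastp for read quality, HISAT2 for alignment (GRCm38) and StringTie for assembly; the submitters' processing notes give cutadapt 1.9, HISAT2 2.0.4 and StringTie 1.3.4d. The deposited table holds raw counts per gene, whose counting tool is not given in the sources used here, and the FPKM calculated by the authors, in which 0 is written as 0.0001. Of the counts from 1 to 12, 44.3% were 4, 8 or 12. Counts were scaled by TMM and tested with edgeR 4.0.16 (R 4.3.3, quasi-likelihood F test, two-sided, 4 groups in one fit, Benjamini-Hochberg adjustment over all genes tested). A run on simulated counts used only the genes above the filter. It therefore does not cover the fit without filter or the low counts of Gbp4, Gbp5 and Gbp6. Limma 3.58.1 and DESeq2 1.42.0 served as alternatives. SEs were derived from the F statistic. All 7 members, the other GBP genes and up to 4 genes per list with the smallest adjusted p, plus Irf1 and Irf9, were to be named; others named in the text were chosen after their values were seen. The members and lists were chosen with earlier results of these data known. A gene of the transcription factor list is not reported here. The sum over overlapping genes and the limit of 12 counts were added after seeing the data. Promoter sequences came from RefSeq (GRCm38.p6).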

Additional observations from a re-analysis of the deposited data

How the results depend on the processing

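The counts of members that passed, 7, 7, 6, 0, 4 and 2 of 7 for TGF-β1 against untreated, M-MDSC and G-MDSC supernatant against TGF-β1, between the supernatants, and each against untreated, come from the fit without filter. The filtered fit, which tested Gbp2, Gbp3, Gbp7 and Gbp9 and was the planned one, gave 4, 4, 4, 0, 4 and 2. Between the supernatants, where 0 passed, DESeq2 called 2 without the filter and 3 with it. Counts divided by 4, limma on log2(FPKM + 1) and a fit of only the groups compared each called 1 in both fits, and a filter of FPKM of at least 1 in 6 libraries called 1. Against untreated MSCs, the rule of the study called 2 instead of 4 with M-MDSC supernatant in both fits, and with G-MDSC supernatant 3 without the filter (Gbp3 and Gbp7 as higher, Gbp5 as lower) and 1 with it, instead of 2. With limma on log2(FPKM + 1) and no filter, 6, 5 and 4 members passed in the first 3 comparisons. Leaving out each library in turn gave 7, 7, 6 to 7, 0, 3 to 4 and 2 without the filter and 4, 4, 4, 0, 3 to 4 and 2 with it.

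Signs turned only where values were near 0. For M-MDSC supernatant against untreated MSCs, Gbp4 became 0.20 without untreated replicate 1 and 0.16 without M-MDSC supernatant replicate 2. For G-MDSC supernatant against untreated MSCs, Gbp6 became -0.06 with the replicate block, -0.0 and -0.09 with limma at pseudocounts of 1 and 0.1, and -0.05, -0.12 and -0.25 without untreated replicate 1 and G-MDSC supernatant replicates 2 and 3. Gbp9 became -0.02 without untreated replicate 2, Gbp10 -0.13 without it, and Gbp2b 0.0 without untreated replicate 3. Over the libraries left out in turn, Gbp4 ran from -0.30 to 0.20, Gbp6 from -0.25 to 0.47, Gbp9 from -0.02 to 0.15, Gbp10 from -0.13 to 0.57 and Gbp2b from -0.13 to 0.0. The cause was not tested. Same-numbered libraries did not deviate together (mean correlation -0.00382 over 18 pairs, none over 0.1). No pairing by number was thus seen, which does not exclude shared handling. The replicate block left the counts of members that passed at 7, 7, 6, 0, 4 and 2 without the filter and at 4, 4, 4, 0, 4 and 2 with it. None of the 12 libraries reached 1 FPKM for Gbp4, Gbp5 or Gbp6, and low counts that pile up at multiples of 4 carry less information than their number.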
